A study of Homo sapiens with 3 samples.

Results

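The genes described here encode collagen chains and the enzymes that crosslink collagen. They were taken by gene symbol, current or older, from a fixed list of 42 genes, 34 for collagen chains and 8 for enzymes. All 42 were found among the 17185 genes that could be named on the array, through 45 probe sets. Expression was measured in MNNG/HOS, a chemically transformed human osteosarcoma cell line, in serum-free DMEM/F12 medium. Each of the 3 cultures began as adherent cells that remained after spontaneously formed sarcospheres had been separated from them. One was given TGF-beta1, the cytokine transforming growth factor beta 1, for 3 days at 4 ng/mL, a stage the submitters call mesophase. A second had that dose for 5 days, and only its suspended spheres were taken (iOSCs). The third was kept for 5 days without TGF-beta1. The labels do not state which cells of the day 3 culture were taken. Each culture was hybridised to 1 array, so no test or standard error was possible, and a gene was counted as higher or lower where 2 arrays differed at least 2-fold. Days in culture, treatment and the fraction of cells collected differ between these groups in part together and cannot be told apart.

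Collagens are triple helices of 3 chains, and each type is built from its own set of chains. Types I, II, III, V and XI form striated fibrils, type IV forms the sheet of basement membranes, and type VI forms beaded filaments around cells. FACIT collagens sit on fibrils, multiplexins carry glycosaminoglycan side chains, and types XIII and XVII span the cell membrane. Lysyl hydroxylases (PLOD genes) modify lysines inside the cell, and lysyl oxidases (LOX genes) then oxidise lysines outside it, from which covalent crosslinks form. Bone matrix is mostly type I collagen, and TGF-beta1 is a known inducer of collagen genes in mesenchymal cells.

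Type IV chains are of interest for their position, because their 6 genes lie in 3 head-to-head pairs whose members are transcribed away from a shared start region. RefSeq promoter windows of GRCh38.p14, from 250 bases before to 50 after a gene's start, were matched for 32 of the 42 genes (46 windows of 300.0 bases), and not for COL1A1, COL1A2, COL2A1, COL3A1, COL5A2, COL6A1, COL8A1, COL9A3, COL14A1 and LOXL2. The starts of COL4A1 and COL4A2 lie 127 bases apart, those of COL4A4 and COL4A3 419 bases apart, and the nearest starts of COL4A6 and COL4A5 380.0 bases apart. One window per pair is shown 5′ to 3′ on the strand of the named gene, with capitals for the bases that its partner's window also holds (226, 82 and 121 bases). They are COL4A1 at chr13:110307108-110307407 (minus strand), COL4A4 at chr2:227164156-227164455 (minus strand) and COL4A5 at chrX:108439588-108439887 (plus strand).
COL4A1: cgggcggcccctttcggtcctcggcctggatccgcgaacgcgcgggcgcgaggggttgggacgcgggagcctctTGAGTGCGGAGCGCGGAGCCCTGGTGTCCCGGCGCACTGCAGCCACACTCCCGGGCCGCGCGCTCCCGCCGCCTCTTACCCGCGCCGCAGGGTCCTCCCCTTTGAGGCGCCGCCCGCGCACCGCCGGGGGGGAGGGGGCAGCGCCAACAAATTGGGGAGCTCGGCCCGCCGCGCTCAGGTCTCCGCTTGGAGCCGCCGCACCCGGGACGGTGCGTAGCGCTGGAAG
COL4A4: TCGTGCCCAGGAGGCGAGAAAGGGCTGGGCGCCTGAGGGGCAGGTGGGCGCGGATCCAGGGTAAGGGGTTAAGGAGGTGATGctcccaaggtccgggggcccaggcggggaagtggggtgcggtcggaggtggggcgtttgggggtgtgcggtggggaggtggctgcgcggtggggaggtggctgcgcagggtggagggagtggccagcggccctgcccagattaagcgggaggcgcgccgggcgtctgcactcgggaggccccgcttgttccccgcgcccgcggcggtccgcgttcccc
COL4A5: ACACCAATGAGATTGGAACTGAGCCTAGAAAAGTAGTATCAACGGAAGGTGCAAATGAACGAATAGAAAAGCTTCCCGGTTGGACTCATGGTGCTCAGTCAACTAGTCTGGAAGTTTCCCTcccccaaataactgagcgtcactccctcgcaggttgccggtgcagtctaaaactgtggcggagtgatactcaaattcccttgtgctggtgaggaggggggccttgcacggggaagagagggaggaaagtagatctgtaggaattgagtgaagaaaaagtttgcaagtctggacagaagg

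Windows of 3 chains that were at least 2-fold higher at day 3 are shown for their GC boxes, in capitals (GGGCGG on either strand). COL6A2 lies at chr21:46097862-46098161 (plus strand), the first of 2 windows of COL5A1 at chr9:134641553-134641852 (plus strand) and COL7A1 at chr3:48595280-48595579 (minus strand).
COL6A2: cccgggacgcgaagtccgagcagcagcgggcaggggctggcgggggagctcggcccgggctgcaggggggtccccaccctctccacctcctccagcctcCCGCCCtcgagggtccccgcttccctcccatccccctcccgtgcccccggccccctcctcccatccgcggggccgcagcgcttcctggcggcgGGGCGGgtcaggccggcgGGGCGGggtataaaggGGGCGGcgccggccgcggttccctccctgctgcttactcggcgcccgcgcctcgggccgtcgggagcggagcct
COL5A1: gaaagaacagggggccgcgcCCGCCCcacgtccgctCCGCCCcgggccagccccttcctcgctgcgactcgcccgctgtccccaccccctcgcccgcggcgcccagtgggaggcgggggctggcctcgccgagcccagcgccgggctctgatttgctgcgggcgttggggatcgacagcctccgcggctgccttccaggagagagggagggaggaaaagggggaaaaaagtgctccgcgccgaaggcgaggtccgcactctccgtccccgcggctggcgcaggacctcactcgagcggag
COL7A1: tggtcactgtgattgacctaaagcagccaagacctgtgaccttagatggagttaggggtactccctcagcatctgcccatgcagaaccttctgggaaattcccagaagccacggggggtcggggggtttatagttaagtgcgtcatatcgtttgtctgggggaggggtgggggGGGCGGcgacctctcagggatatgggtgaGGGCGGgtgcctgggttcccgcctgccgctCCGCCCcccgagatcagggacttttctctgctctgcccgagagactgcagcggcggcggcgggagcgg
They hold 4, 2 and 3 GC boxes in the order shown. A GC box was found in 26 of the 46 windows (56.5%), against 45.0% of all 35116 windows in the table. These windows belonged to 23 genes and were not limited to higher ones. They included LOX, at least 2-fold lower at day 3, and LOXL3, at least 2-fold lower in spheres. PLOD1, PLOD2 and PLOD3, within 2-fold in every comparison, also had one. The SMAD-type element CAGACA was found in 6 (13.0%, against 16.9%), of the 5 genes COL4A6, COL7A1, COL10A1, COL16A1 and LOX. Of these COL7A1 was at least 2-fold higher at day 3 and LOX at least 2-fold lower. The AP-1 motif TGANTCA was found in 1 (2.17%, against 7.71%), that of COL10A1. The hypoxia core ACGTG stood in 10 (21.7%, against 21.4%) and TATAAA in 7 (15.2%, against 11.5%). All motifs were sought on both strands. These are letter matches in short windows, some of which overlap, and nothing follows from them about binding.

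The arrays had median probe set intensities of 437 at day 3, 445 in the spheres and 455 in untreated cells. Intensities are linear values from robust multi-array averaging (RMA), and levels are not compared between genes because probes differ in brightness. Of the 42 genes, 22 reached 685, the median of all gene values, on at least 1 array (the level filter), and 7 stayed under 63.4, the lowest quartile, on all 3. Detection calls were not used here, so whether a low value exceeded background is not known. The labelled cell type was checked on its markers. RUNX2 lay at 4818, 3246 and 4000.1 and SPARC at 16730.3, 17393 and 10664 at day 3, in spheres and in untreated cells, and 2 more of the 7 osteoblast markers passed the level filter, BGLAP (osteocalcin) at 1115, 1288 and 1009.7 and SPP1 (osteopontin) at 6601, 3489 and 3436. The other 3, SP7, ALPL and IBSP, were between 31.3 and 76.4 on every array, and no osteoblast marker differed 2-fold. Among 5 endothelial markers 3 lay in the lowest quartile on each array. The summed intensity of the 5 was 1122 at day 3, 333 in spheres and 271 in untreated cells, mostly PECAM1 at day 3 (944). PECAM1 was 14.4-fold higher than in untreated cells at day 3 and 2.61-fold in spheres (944 and 171, against 65.6). KDR, in the lowest quartile throughout, was at least 2-fold lower on both treated arrays (11.7 and 8.64, against 55.0). CDH5, VWF and TEK were within 2-fold. Of 6 haematopoietic markers 3 were in the lowest quartile on each array, including the defining PTPRC at 25.9, 18.5 and 21.4, and their sums of 1329, 2607 and 3690 were mostly CD68, at 1001, 2248 and 3006. CD14 had 141, 201 and 509. Both were at least 2-fold lower than in untreated cells at day 3, and CD14 also in spheres. Of 6 epithelial markers 4 passed the level filter, with sums of 45442, 34939 and 50490 that came mostly from KRT18 (25211, 18814 and 26114) and KRT8 (17995, 13911 and 22690). EPCAM also passed the filter, at 1435, 1320 and 1509, within 2-fold. CLDN4, a tight junction gene, was 6.58-fold higher at day 3 and 7.43-fold in spheres (725 and 819, against 110). CDH1 was in the lowest quartile on every array, and KRT19 was at most 68.2. Summed over 6 mesenchymal markers, all past the filter, the intensity was 53214, 49372 and 43270.5. The sum hides differences of single markers. PRRX1 was at least 2-fold higher than in untreated cells at day 3 and in spheres (4951 and 8206, against 1867). THY1 was at least 2-fold lower in spheres than at day 3 (469 against 939). VIM, TWIST1, CDH2 and S100A4 were within 2-fold in every comparison. The part of these markers in the collagen values was not tested, and in bulk RNA fewer cells of a type and less RNA per cell cannot be told apart. Among 6 known TGF-beta1 target genes, SMAD7 and PMEPA1 exceeded untreated cells at least 2-fold on both treated arrays, and none of the 6 was at least 2-fold lower.

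**Figure D1:**
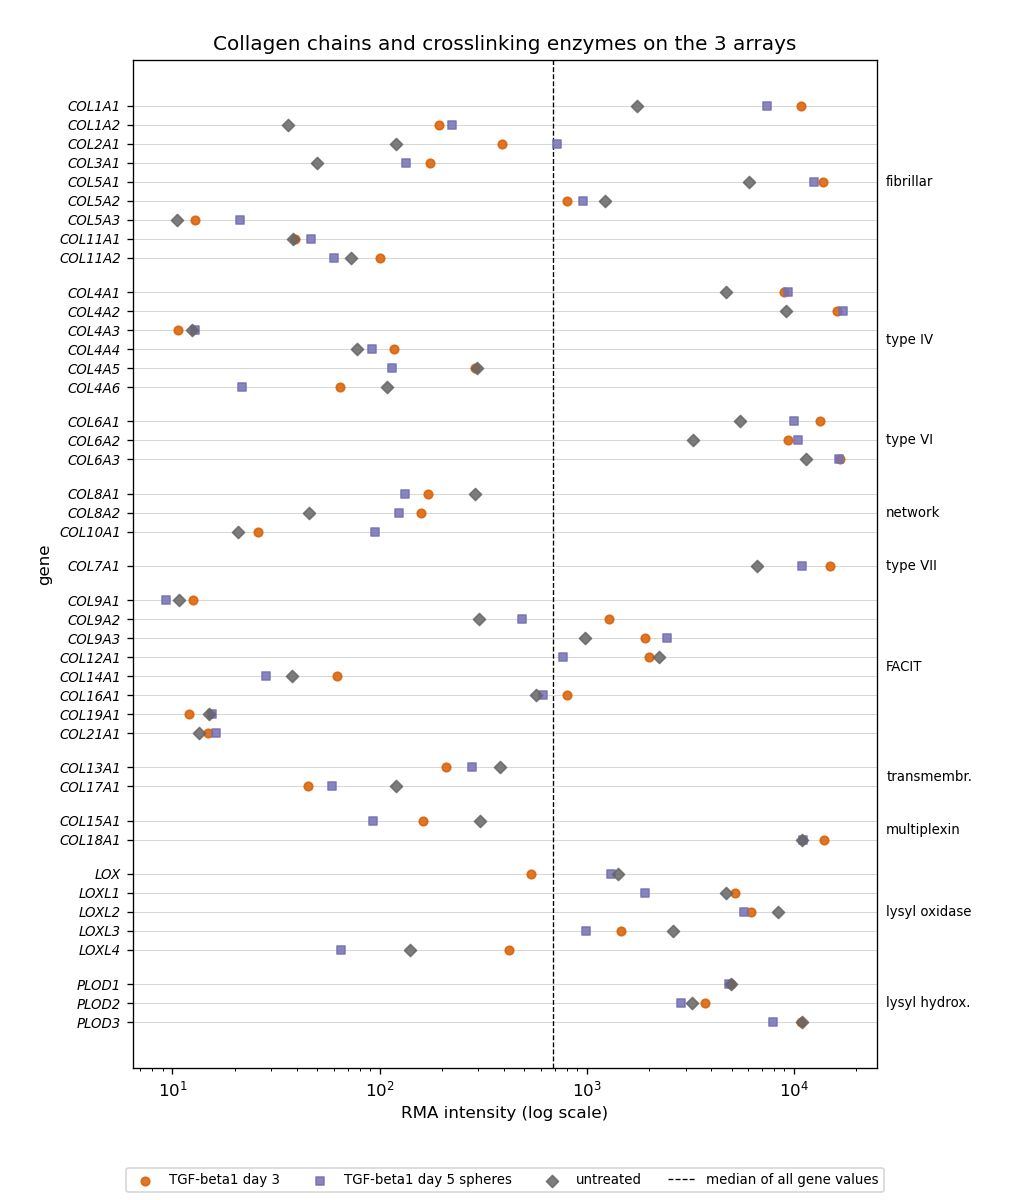
RMA intensity (log axis) of each of the 42 genes on the arrays of TGF-beta1 day 3 (circles), day 5 spheres (squares) and untreated cells (diamonds), by class; each point is 1 array. The dashed line marks 685, which 22 of the genes reached on at least 1 array.

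After 3 days of TGF-beta1 10 of the 34 collagen chains were at least 2-fold higher than in untreated cells and 1 was lower, while of 5 lysyl oxidases 1 was higher and 1 lower and all 3 lysyl hydroxylases were within 2-fold. With LOXL4 this made 11 of 42 genes higher (26.2%), against 5.77% of all 17185 genes, and the chains were COL1A1, COL1A2, COL2A1, COL3A1, COL5A1, COL6A1, COL6A2, COL7A1, COL8A2 and COL9A2. Only LOX and COL17A1 were at least 2-fold lower (4.76%), against 5.26% of all genes, a share near the background. The median log2 difference was 0.31 over the 42 genes and -0.01 over all genes. The chains alone had a median of 0.48 and the 8 enzymes one of -0.01.

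In the day 5 spheres 6 of the 9 fibrillar chains among the 42 genes were at least 2-fold higher than in untreated cells. Of the 5 lysyl oxidases 3 were at least 2-fold lower. Against untreated cells 10 of 42 genes were at least 2-fold higher (23.8%), against 4.90% of all genes, and 9 were at least 2-fold lower (21.4%), against 5.00%. The 10 higher genes were all chains, COL1A1, COL1A2, COL2A1, COL3A1, COL5A1, COL5A3, COL6A2, COL8A2, COL9A3 and COL10A1. The lower ones were 6 chains, COL4A5, COL4A6, COL8A1, COL12A1, COL15A1 and COL17A1, and the lysyl oxidases LOXL1, LOXL3 and LOXL4. The median over the 42 genes was 0.05, and that over all genes 0.01. Untreated cells are the same array in both comparisons, so genes shared by these lists are no independent support for each other.

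Set against day 3, the spheres had fewer differences, and these were mostly lower values. Only COL10A1 and LOX exceeded day 3 at least 2-fold (4.76%), against 5.78% of all genes. Lower were 7 genes (16.7%), namely COL4A5, COL4A6, COL9A2, COL12A1, COL14A1, LOXL1 and LOXL4, against 4.72% of all genes. The median was -0.34 over the 42 genes and -0.04 over all genes.

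**Figure D2:**
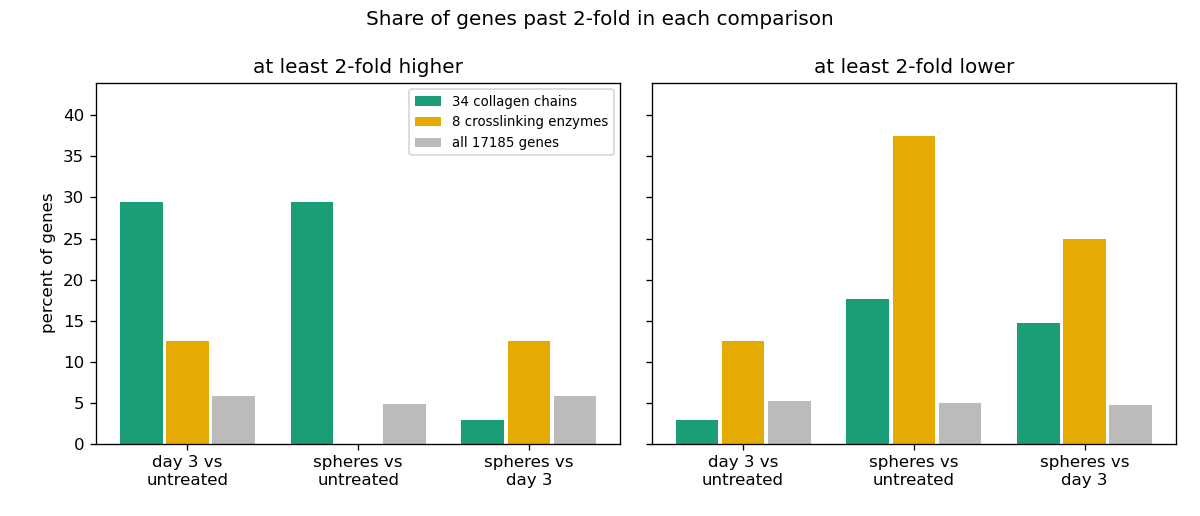
Percent of the 34 collagen chains, of the 8 crosslinking enzymes and of all 17185 genes that were at least 2-fold higher (left) or lower (right) in each comparison, from 1 array per group. Chains reach 29.4% higher both at day 3 and in spheres against untreated cells, and enzymes reach 37.5% lower in spheres against untreated cells.

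Among the 34 chains, fibrillar collagens held the largest differences from untreated cells. COL1A1, the gene of the alpha 1 chain of type I collagen, had an intensity of 10781 at day 3 and 7408 in spheres, against 1755 in untreated cells. COL1A2, the gene of its partner chain in the usual type I helix, had 193 and 224, against 36.2 in untreated cells. Both type I genes were thus higher on both treated arrays, by log2 differences of 2.62 and 2.41 at day 3 and of 2.08 and 2.63 in spheres. COL1A2 stayed under the level filter on all 3 arrays, and once 64 was added to its intensities the log2 differences came to 1.36 at day 3 and 1.52 in spheres.

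COL2A1, the gene of the main collagen of cartilage, had 389 at day 3 and 719 in spheres, against 121 in untreated cells. COL3A1, whose product forms type III fibrils in soft tissue, had 175 and 135, against 49.6. For these genes the fold over untreated cells was 3.23 and 3.52 at day 3 and 5.96 and 2.72 in spheres, and spheres minus day 3 was 0.88 in log2 for COL2A1 and -0.37 for COL3A1, both within 2-fold. With 64 added COL3A1 was no longer past 2-fold in the spheres (log2 0.81).

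Type V collagen, which starts and thins type I fibrils, differed from chain to chain. COL5A1 had 13852 at day 3 and 12479 in spheres, against 6092 in untreated cells, or 2.27-fold and 2.05-fold higher. COL5A2, which joins COL5A1 in the common type V helix, had 801 and 964, against 1230.0, log2 differences of -0.62 and -0.35 that are within 2-fold. The gap between these partners was therefore 1.80 in log2 at day 3. COL5A3 was at most 21.2 on each array, and its 2.03-fold difference in spheres came to a log2 of 0.19 with 64 added. Type XI chains, partners of type II in cartilage fibrils, were also low and within 2-fold: COL11A1 had 39.1 and 46.6, against 38.2, and COL11A2 100.3 and 60.4, against 72.5. The 9 fibrillar genes counted here leave out COL24A1 and COL27A1, which were listed with other chains. Of these 9, 5 exceeded untreated cells 2-fold at day 3, against 5.77% of all genes, and 6 did in spheres, against 4.90%. Their medians were 1.19 and 1.03, and none was at least 2-fold lower. Without COL3A1 and COL5A3, which fell inside 2-fold with 64 added, 4 were left in spheres.

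Type IV collagen split by gene pair. COL4A1 had 8922 at day 3 and 9340.2 in spheres, against 4696 in untreated cells, and COL4A2 had 16136 and 17328, against 9203. These are the chains of nearly all basement membranes, and both were just short of 2-fold, with log2 differences of 0.93 and 0.81 at day 3 and of 0.99 and 0.91 in spheres. The differences of these divergent partners lay within 0.12 of each other at day 3 and within 0.08 in spheres. The other 2 pairs, all under the level filter, lay further apart. Their gaps at day 3 and in spheres were 0.72 and 0.98 for COL4A5 and COL4A6. For COL4A3 and COL4A4 they were 0.82, with opposite signs, and 0.20. With arrays centred on their medians COL4A1 passed 2-fold in spheres (1.02).

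COL4A5 had 288 at day 3 and 114 in spheres, against 294 in untreated cells. COL4A6 had 64.7 and 21.6, against 109. Their products form the alpha 5 and alpha 6 chains of specialised basement membranes, and this pair was lower in spheres than in untreated cells, 2.56-fold and 5.06-fold. Against day 3 the spheres were lower by 2.51-fold and 3.00-fold. Both probe sets of COL4A6 had log2 differences of the same sign, -2.17 and -2.50 in spheres and -0.79 and -0.72 at day 3. Neither gene passed the level filter, and with 64 added both were still past 2-fold against untreated cells (COL4A6 by -1.03) and no longer against day 3 (-0.98 and -0.60). The remaining pair was low and within 2-fold, COL4A3 at 10.6 and 12.8, against 12.4, and COL4A4 at 117 and 92.1, against 77.7.

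**Figure D3:**
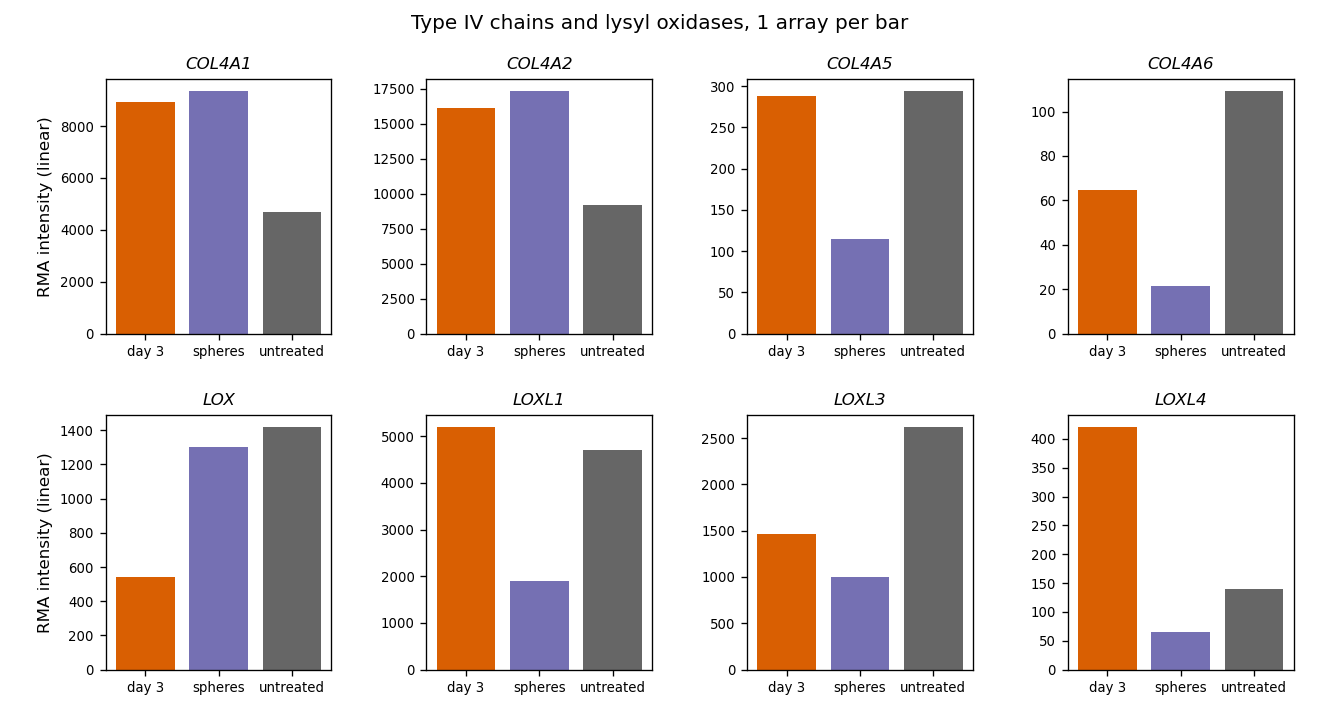
Linear RMA intensity of type IV chains (top) and lysyl oxidases (bottom) at day 3, in spheres and in untreated cells; each bar is 1 array and each panel has its own axis from 0. COL4A1 and COL4A2 lie just short of 2-fold above untreated cells on both treated arrays, COL4A5 and COL4A6 are lowest in spheres, and LOXL4 is highest at day 3 (420.4, against 140.1 untreated).

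Type VI collagen is a helix of 3 different chains that surrounds mesenchymal cells. Of its 3 chains among the 42 genes, COL6A1 and COL6A2 were at least 2-fold higher at day 3, against 5.77% of all genes. In spheres only COL6A2 was, against 4.90% of all genes. COL6A1 had 13303 at day 3 and 9958 in spheres, against 5520.2 in untreated cells. COL6A2 had 9411 and 10437, against 3255. COL6A3 had 16626 and 16539, against 11406. All 6 values from treated cultures were thus above those of untreated cells, by log2 differences of 1.27, 1.53 and 0.54 at day 3 and of 0.85, 1.68 and 0.54 in spheres. The 3 probe sets of COL6A2 were within 0.18 of each other in spheres (1.58 to 1.76) and within 0.11 at day 3 (1.47 to 1.57). Over all 1349 genes with several probe sets the median gap between probe sets was 0.23 at day 3 and 0.25 in spheres, a gap between probes and not between cultures.

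COL7A1, the gene of the anchoring fibrils beneath epithelia, had 14993 at day 3 and 10953 in spheres, against 6651 in untreated cells. This was 2.25-fold higher at day 3 and 1.65-fold higher in spheres. Network-forming chains were all under the level filter. COL8A2 had 159 and 125, against 45.4, and its type VIII partner COL8A1 had 171 and 132, against 290. The log2 differences of these partners had opposite signs, 1.81 and 1.46 for COL8A2 and -0.76 (within 2-fold) and -1.13 for COL8A1. COL10A1, a marker of hypertrophic cartilage, had 25.8 at day 3 and 95.4 in spheres, against 20.6, and was 4.63-fold higher in spheres than in untreated cells and 3.70-fold higher than at day 3. With 64 added none of the 3 network chains was past 2-fold in spheres (COL8A1 -0.85, COL8A2 0.79 and COL10A1 0.91).

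FACIT collagens differed from chain to chain. COL9A2 had 1274 at day 3 and 487 in spheres, against 303 in untreated cells, while COL9A3 had 1918 and 2442, against 985. Both encode chains of the cartilage collagen type IX, whose remaining chain gene COL9A1 was at most 12.5 on every array. COL9A2 was thus highest at day 3 (4.20-fold over untreated cells) and COL9A3 in spheres (2.48-fold). COL12A1, which coats type I fibrils in tendon and bone surfaces, had 2006 at day 3 and 767 in spheres, against 2221 in untreated cells. It was 2.90-fold lower in spheres than in untreated cells and 2.62-fold lower than at day 3. COL16A1 had 800.0 and 613, against 567, within 2-fold throughout. COL14A1, COL19A1 and COL21A1 were at most 62.2 on all 3 arrays. Of these COL14A1 was 2.20-fold lower in spheres than at day 3 (28.2 against 62.2), a difference of -0.45 in log2 with 64 added.

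Membrane and multiplexin collagens were lower or within 2-fold. COL17A1, a hemidesmosome component, had 45.2 at day 3 and 58.6 in spheres, against 120 in untreated cells, or 2.65-fold and 2.04-fold lower. COL13A1 had 209.9 and 279.8, against 381. COL15A1, found next to basement membranes, had 163 and 92.8, against 304, and was 3.28-fold lower in spheres. These 3 genes were all below untreated cells on both treated arrays and all under the level filter. With 64 added COL17A1 was within 2-fold at day 3 (-0.75) and in spheres (-0.58), and with centred arrays its value in spheres also came just inside 2-fold. COL18A1, the source of the fragment endostatin, had 14046 and 11122, against 10911, within 2-fold.

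Of the 5 lysyl oxidases LOXL1, LOXL3 and LOXL4 were at least 2-fold lower in spheres than in untreated cells, against 5.00% of all genes, and at day 3 LOXL4 was higher and LOX lower. LOX, the founding member of the family, had 541 at day 3 and 1304 in spheres, against 1418 in untreated cells. It was 2.62-fold lower at day 3 and within 2-fold in spheres, which were 2.41-fold higher than day 3. LOXL1, known for its role with elastic fibres, had 5195 at day 3 and 1902 in spheres, against 4702 in untreated cells. Here the spheres were the low array, 2.47-fold below untreated cells and 2.73-fold below day 3. LOXL2, which acts on type IV collagen, had 6186 and 5767, against 8403, log2 differences of -0.44 and -0.54.

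LOXL3 had 1468 at day 3 and 996 in spheres, against 2617 in untreated cells, or 1.78-fold and 2.63-fold lower. LOXL4 had 420.4 at day 3 and 64.9 in spheres, against 140.1 in untreated cells. It was the single member past 2-fold in opposite directions, 3.00-fold higher at day 3 and 2.16-fold lower in spheres, and the spheres were 6.47-fold below day 3. LOXL4 did not pass the level filter, and with 64 added its values were 1.25 at day 3, -0.66 in spheres and -1.91 for spheres minus day 3. The median of the 5 lysyl oxidases was -1.11 in spheres and -0.44 at day 3.

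Lysyl hydroxylases stayed within 2-fold in every comparison. PLOD1, which acts on helical lysines, had 4979.6 at day 3 and 4855 in spheres, against 4979.4 in untreated cells. PLOD2, which acts on the telopeptide lysines at the chain ends, had 3741 and 2853, against 3222. PLOD3, which also has glycosyltransferase activity, had 10779.6 and 7945, against 10943. Their log2 differences from untreated cells ran from -0.02 to 0.22 at day 3 and from -0.46 to -0.04 in spheres, beside type I chains that differed by 2.08 or more.

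**Figure D4:**
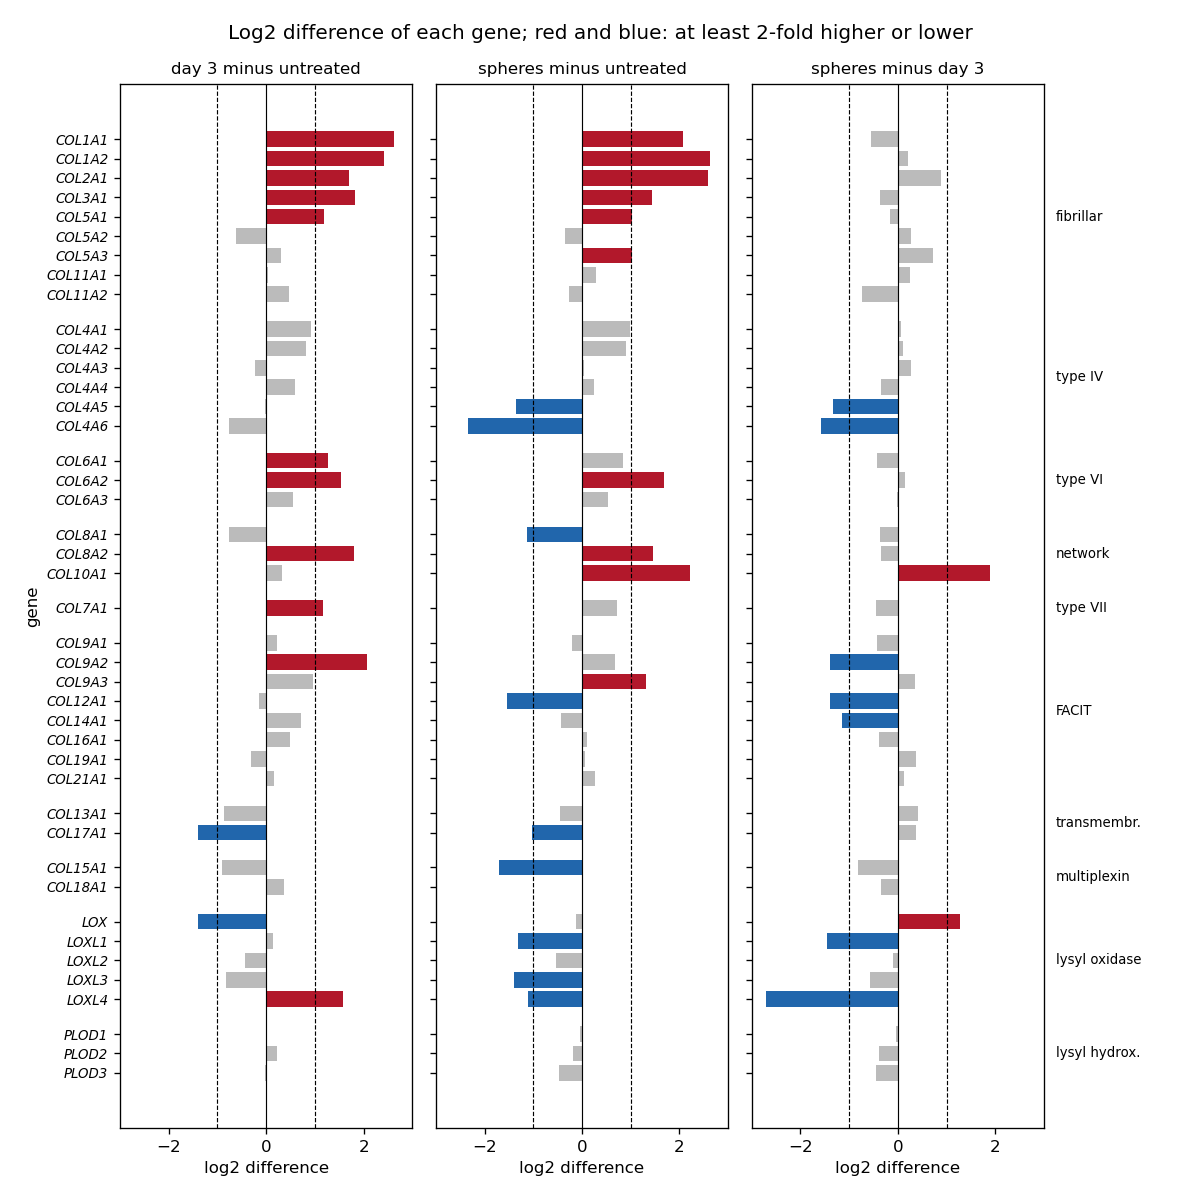
Log2 difference of each of the 42 genes for day 3 minus untreated, spheres minus untreated and spheres minus day 3, by class; dashed lines mark 2-fold, with red bars at least 2-fold higher and blue bars at least 2-fold lower. Each bar compares 2 single arrays. Fibrillar chains COL1A1, COL1A2, COL2A1, COL3A1 and COL5A1 are red in both comparisons with untreated cells, and LOXL4 is red at day 3 and blue in spheres.

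Neighbouring genes did not always differ alike. Among the 42 genes 6 pairs are direct neighbours in the RefSeq order of protein-coding genes. COL6A1 and COL6A2 were both at least 2-fold higher at day 3 (1.27 and 1.53), and in spheres COL6A2 was (1.68) and COL6A1 was not (0.85). COL4A1 and COL4A2 were within 2-fold in both comparisons. The log2 differences of COL3A1 and COL5A2 had opposite signs, 1.82 and -0.62 at day 3 and 1.44 and -0.35 in spheres. COL4A6 and COL4A5 were both at least 2-fold lower in spheres. COL4A4 with COL4A3 and COL19A1 with COL9A1 were within 2-fold in both.

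Genes that make, process, bind or degrade collagen were looked up in lists of their own. In the list of prolyl hydroxylation, folding and secretion 19 of 20 genes were measured, and at day 3 1 was at least 2-fold higher and 1 lower (5.26% each), against 5.77% and 5.26% of all genes, shares near the background. In spheres 3 were higher (15.8%) and 1 lower, against 4.90% and 5.00% of all genes. P4HA1 and P4HA2 encode the catalytic subunits of prolyl 4-hydroxylase, which stabilises the triple helix. P4HA1 had 2693 at day 3 and 5086 in spheres, against 2161 in untreated cells, and P4HA2 had 6118 and 6170.5, against 2751. P4HA2 was 2.22-fold higher at day 3 and 2.24-fold in spheres, and P4HA1 2.35-fold higher in spheres. P3H2, a prolyl 3-hydroxylase known for type IV collagen, had 185 and 138, against 717, and was 3.87-fold and 5.20-fold lower. CRTAP, part of the prolyl 3-hydroxylation complex, had 1390.9 and 910.3, against 1734. The list's medians were 0.13 and -0.04. Beside this list, 12 hypoxia genes were looked up. Their median was -0.10 at day 3 and 0.47 in spheres. At day 3 1 (EGLN3) was at least 2-fold higher (8.33%, against 5.77% of all genes) and 0 lower. In spheres 4 (NDRG1, DDIT4, PDK1 and KDM3A) were higher (33.3%, against 4.90%) and 0 lower. Of the 12 genes 10 were above untreated cells in spheres, while ADM (-0.23) and VEGFA (-0.66) were below. The part of these genes in the value of P4HA1, or of any other collagen gene, was not tested.

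Propeptide cleavage, which lets procollagen assemble into fibrils, had 2 of 9 genes at least 2-fold higher (22.2%) and 1 lower at day 3, against 5.77% and 5.26% of all genes, and 1 higher (11.1%) and 0 lower in spheres, against 4.90% and 5.00%. BMP1, the C-propeptide protease, had 1942 at day 3 and 1856 in spheres, against 859.8 in untreated cells, 2.26-fold and 2.16-fold higher. FURIN, which activates proproteins including pro-TGF-beta1, had 2176 and 1362, against 775. Its 2.81-fold difference at day 3 was 1.76-fold in spheres. PCOLCE, an enhancer of BMP1, had 16613 and 9815, against 11006, and PCOLCE2 909 and 1149.8, against 712, both within 2-fold.

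Collagen receptors were at least 2-fold higher at day 3 in 4 of 10 genes (against 5.77% of all genes), none was lower, and in spheres 1 was higher (against 4.90%) and 0 lower. ITGA11, an integrin subunit that binds type I collagen, had 1869 at day 3 and 408 in spheres, against 390 in untreated cells. MRC2, an endocytic receptor that takes up collagen, had 2851 and 1465, against 746. DDR1, a receptor tyrosine kinase for collagen, had 2419.8 and 1373, against 1059.7, and the integrin gene ITGA1 had 3844 and 2486, against 1862. All of these 4 passed 2-fold at day 3 and not in spheres, with ITGA11 4.58-fold lower in spheres than at day 3. Among 8 breakdown genes, MMP13, a collagenase, had 1807 and 1045, against 273, and MMP1, another collagenase, 632 and 2214, against 3952. MMP2, a gelatinase, had 5387 and 4394, against 1831, and MMP14, its membrane-bound activator, 7598 and 8123, against 5012. The list held 2 higher (25.0%) and 1 lower genes at day 3, against 5.77% and 5.26% of all genes, and 3 higher (37.5%) and 0 lower in spheres, against 4.90% and 5.00%. Among 9 other collagen chains measured, 2 passed 2-fold upwards at day 3 (against 5.77% of all genes), 1 did in spheres (against 4.90%) and none was lower. COL27A1, the one past the level filter, had 2036 and 1784, against 2130.0. COL24A1 (145 and 37.1, against 19.5) and COL23A1 (100.7 and 212, against 50.0), the genes past 2-fold, were named after their values were seen. So were 4 genes under the level filter that complete the counts above. CREB3L1, a transcription factor of type I collagen genes, had 309 and 490.1, against 204.8, and ADAMTS3, an N-propeptide protease, 87.5 and 100.5, against 198. The platelet collagen receptor gene GP6 had 25.2 and 75.7, against 37.0, and the fibroblast protease gene FAP 18.5 and 71.5, against 9.38.

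**Figure D5:**
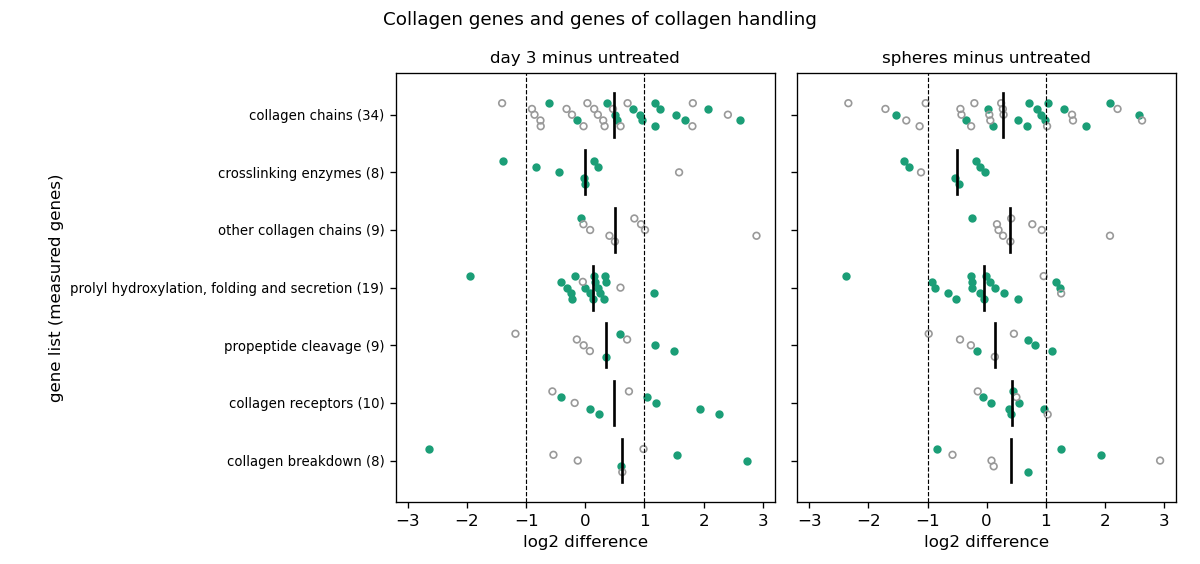
Log2 difference from untreated cells at day 3 (left) and in spheres (right) for each measured gene of 7 lists; filled points passed the level filter, open points did not, black lines are list medians and dashed lines mark 2-fold. The chains' median is 0.48 at day 3 and 0.28 in spheres, and that of the crosslinking enzymes -0.01 and -0.50.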

How the data were processed

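Total RNA from the 3 cultures was labelled with Cy3, per the labels. The authors deposited a linear intensity for each probe set on each array; RMA is the method that the submitters' processing notes name. RMA subtracts background and gives all arrays nearly the same distribution, which would hide a shift of most genes. The version of RMA and the scanner are not stated in the labels. Of 45033 probe sets, 18188 were named by the platform's gene table (updated through gene identifiers) and 678 by RefSeq accession (GRCh38.p14). Log2 values, with no offset, were averaged over the probe sets of a gene. Of the 42 genes 40 had 1 probe set. A fixed rule of 2-fold stood in for a test. The level filter (685) is the median of all gene values. Alternatives were the brightest or median probe set, centred arrays, quantile normalization, 64 added before log2, rules of 1.5-fold and 3-fold, and the level filter. Members and lists were chosen with earlier results of these data known. From each list beside the members, up to 4 genes past the filter with the largest differences from untreated cells were named. The procedure was tested on simulated data. Python 3.11.15 with pandas 2.3.3, numpy 2.4.6 and matplotlib 3.10.9 was used.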

Additional observations from a re-analysis of the deposited data

Results flagged for a closer look

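LOXL4 differed from untreated cells at least 2-fold in opposite directions on the treated arrays, with log2 differences of 1.58 at day 3 and -1.11 in spheres, which puts the spheres -2.69 from day 3. The difference was not tested, since each group is 1 array. LOXL4 did not pass the level filter, and with 64 added its difference from untreated cells in spheres was -0.66, within 2-fold.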

How the results depend on the processing

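The medians of the 42 genes kept their sign under each alternative run, and more genes were higher than lower at day 3 under each. The higher and lower counts became equal with 64 added (spheres against untreated cells) and under the 3-fold rule (spheres against day 3). With 64 added to each intensity, 1 gene was at least 2-fold lower at day 3 instead of 2, 6 instead of 10 were higher and 6 instead of 9 lower in spheres against untreated cells, and 1 and 4 instead of 2 and 7 were higher and lower in spheres against day 3. The medians were then 0.18 at day 3 and -0.18 for spheres minus day 3. Under a 1.5-fold rule 8 genes were lower at day 3 and 4 higher in spheres than at day 3. Under a 3-fold rule 6 were higher and 0 lower at day 3, 5 higher and 2 lower in spheres, and 1 higher and 1 lower in spheres against day 3. Among the 22 genes past the level filter, 7 were higher and 1 lower at day 3, 5 and 3 in spheres, and 1 and 3 in spheres against day 3, with medians of 0.52, 0.32 and -0.24. Of all 9285 genes past the filter, 4.60% were higher and 3.44% lower at day 3. These shares were 3.98% and 4.40% in spheres, and 4.57% and 5.12% in spheres against day 3. A gene passes this filter through any 1 array, so COL9A2 is counted only through its day 3 value and COL2A1 only through its value in spheres, and these counts support nothing about the genes that differ. These alternatives change the threshold, the genes counted or the weight of low values by construction. Shares of all genes were not computed with 64 added or under the 1.5-fold and 3-fold rules, so those counts have no background beside them.

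Of 126 differences of single genes, 12 fell inside 2-fold with 64 added, and 1 did so and 2 passed 2-fold with centred arrays. With quantile normalization 2 passed (COL9A3 at day 3 and COL4A1 in spheres). The brightest or median probe set changed 0, but could alter at most the 2 genes with more than 1 probe set. Values of the 40 genes with 1 probe set are the same there by construction. No value past 2-fold changed sign. All 12 lost differences were of genes under the level filter. One array per group limits the precision, and signal over background is not known for low values.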
